A study of Mus musculus with 6 samples.

Results

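Proteoglycan genes and the genes of the enzymes that build, sulfate and trim their sugar chains made up 44 of the 16729 genes in the deposited table of counts. The members were proteoglycan core proteins and enzymes of heparan, chondroitin and dermatan sulfate, chosen by name and function with earlier results of these data known. Esm1, which encodes the dermatan sulfate proteoglycan Endocan and is the gene deleted in the hosts, was not counted among them. RNA-seq was performed on tumors that grew from mG7080 cells after injection into the brains of C57BL/6 mice, 3 with the genotype Esm1 WT (libraries WT 1, WT 2 and WT 3) and 3 with the genotype Esm1 KO (KO 1, KO 2 and KO 3). The mG7080 culture came from a genetically engineered murine glioblastoma (GBM) model, and its alterations were shared by the tumors of both groups. Hosts received 500000 cells at an age of 6 to 8 weeks according to the methods, while the reporting summary gives 8 to 12 weeks, and the labels name no other treatment. Only the host lacked Esm1, not the injected cells, and each library held RNA of tumor cells and of host brain cells together. All tumors came from 1 cell culture, so the libraries do not sample different tumor genotypes.

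Proteoglycans are core proteins that carry long sulfated sugar chains, the glycosaminoglycans. A shared linkage sugar is built on the core protein first, polymerases then extend it as either heparan sulfate or chondroitin sulfate, and sulfotransferases and an epimerase set the pattern of charges by which the chains bind growth factors, receptors and matrix. In the brain the lecticans and the receptor phosphatase encoded by Ptprz1 are major chondroitin sulfate proteoglycans of glial cells and the matrix around neurons, and gliomas of the oligodendrocyte precursor type are known to express several of them.

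The libraries held 17632070 to 22241832 counted reads each, and 1 read corresponded to between 0.0445 and 0.0570 CPM (counts scaled to library size with edgeR's TMM factors). The precision from such depths covers counting error only. Counts of Esm1 were 25, 21 and 82 in the WT libraries 1 to 3, and 1, 24 and 4 in the KO libraries 1 to 3. In CPM these are 1.19, 1.09 and 4.05 in WT and 0.057, 1.07 and 0.208 in KO, so that each KO library was below each WT library, but the library labelled KO 2, called KO 2 here, was only just below WT 2. Across the more abundant genes, log2 CPM of KO 2 correlated with WT 1, WT 2 and WT 3 at 0.978, 0.942 and 0.965 (Pearson). With KO 1 and KO 3 it correlated at 0.868 and 0.809, while KO 1 and KO 3 correlated with each other at 0.976. This leaves the label of KO 2 doubtful, though not decided, because the injected cells carry the gene. For this reason each comparison was made over all 6 libraries, over WT 1, WT 2, KO 1 and KO 3, which are the libraries in the study's own table of results (the 4 libraries below), and over the 5 libraries without KO 2. KO 2 was singled out by these same expression values, and leaving out the KO library most like WT favours a wider gap between groups. Calls and adjusted p-values from fits without KO 2, over the 4 or the 5 libraries, are therefore descriptions and not independent evidence. The labels name separate tumors, and p-values set the difference between groups against the spread between these samples. Log2 fold changes are KO against WT, SE is the standard error, and adjusted p is the Benjamini-Hochberg value over all genes tested.

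All 44 members were in the table and passed the filter on low counts in each of these fits. Exons of 8 members overlap those of a gene on the other strand (Sdc3, Gpc1, Gpc5, Hs6st1, Sulf2, Chsy1, Chpf2 and Chst15), and their counts are uncertain to that extent because the use of strand in counting is not stated. Their levels per transcript length in the WT hosts, given as the deposited FPKM (a count scaled to transcript length and library depth, mean ± SD, n = 3), ranged from 0.83 ± 0.485 FPKM for Acan, the core protein aggrecan, to 196 ± 38.9 FPKM for Ptprz1. The 3 highest were all neural chondroitin sulfate proteoglycans, with 164 ± 25.9 FPKM for Bcan (brevican) and 96.4 ± 17.9 FPKM for Vcan (versican) after Ptprz1. Sdc3, the syndecan of the nervous system, had 92 ± 10.4 FPKM, close to Cspg5 (neuroglycan C) with 87.4 ± 9.31 FPKM. The highest enzyme was Sulf2, a 6-O-endosulfatase that removes sulfate from finished heparan sulfate, with 52.6 ± 9.92 FPKM. Between the 44 ordered levels, 37 of 43 neighbouring pairs had overlapping ranges over the WT libraries, so that the order of most neighbours cannot be told apart. Ptprz1 and Bcan overlapped, whereas the range of Bcan lay above that of Vcan. Aggrecan at the foot of the order lay apart from its neighbour Lum (lumican, 1.58 ± 0.278 FPKM).

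**Figure D1:**
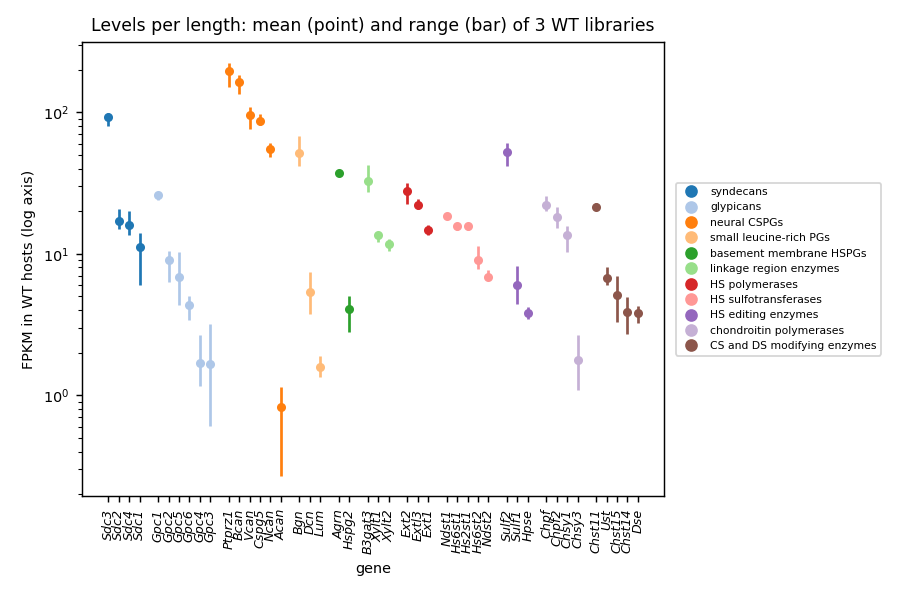
Deposited FPKM of the 44 members in the 3 WT libraries on a log axis, grouped by role, with the mean as a point and the lowest and highest library as a bar. Ptprz1, Bcan and Vcan have the highest means, and Acan has the lowest.

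Over all 6 libraries no member was called at an adjusted p under 0.05 by edgeR's quasi-likelihood test, 0 of 44 lower and 0 of 44 higher, and 0% of the 16166 genes tested were called in either direction. The smallest adjusted p among the members was 0.184. At an unadjusted p under 0.05, 2 members were lower (Gpc2 and Chsy1; 11.9% of all genes) and 4 higher (Sdc4, Gpc4, Gpc5 and B3gat3; 15.2% of all genes). DESeq2 called 2 members higher (Gpc5 and B3gat3; 4.68% of all genes) and 0 lower (2.63%), edgeR's exact test called 0 (0.241% of all genes lower and 0.408% higher), and limma-voom called 0 (0% of all genes). Over the 4 libraries, 9 members (20.5%) fell, against 13.9% of all genes, and 0 rose, against 2.87% of all genes. The 9 were Sdc1, Gpc2, Vcan, Ptprz1, Bgn, Hspg2, Hpse, Chsy1 and Chst14, and 35 members did not pass. At an unadjusted p under 0.05, 11 members were lower (26.2% of all genes) and 4 higher (19.9%) in that fit. DESeq2 and edgeR's exact test each called 10 members lower and 4 higher over the 4 libraries, the additional ones being Ext2 among the lower and Gpc5, B3gat3, Chsy3 and Chst15 as the higher. The corresponding shares of all genes were 19.5% lower and 16.6% higher with DESeq2, and 22.1% and 16% with the exact test. Under the further demand of a fold change above 4, 5 members passed (Sdc1, Gpc2, Vcan, Bgn and Hpse), all lower, against 6.23% of all genes lower and 0.451% higher. The median log2 fold change of the 44 members was 0.19 over the 4 libraries, beside -0.03 for all genes, and 0.09 over all 6, beside -0.02.

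These counts depended on single libraries. Without KO 2, and with the other 5 libraries kept, 14 members fell (31.8%, against 28.3% of all genes) and 8 rose (18.2%, against 24.5% of all genes). The 14 were the same 9 and Sdc3, Bcan, Ext2, Dse and Chst11, and the 8 were Sdc4, Gpc4, Gpc5, B3gat3, Extl3, Hs6st2, Chsy3 and Chst15. Within the 4 libraries, leaving out KO 3 left 0 members called (1.54% of all genes lower, 0% higher), and leaving out KO 1 left 5 lower (Sdc1, Gpc2, Vcan, Bgn and Hpse; 5.62% of all genes) and 0 higher (0.503%). Without WT 1 there were 13 lower and 12 higher (27.5% and 25.9% of all genes), and without WT 2 there were 9 lower and 3 higher (12.5% and 6.91%). The lower members without WT 2 did not include Gpc2 and Chst14 but did include Sulf2 and Chst11. In these fits the single library left in a group was assumed to vary like the other group.

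**Figure D2:**
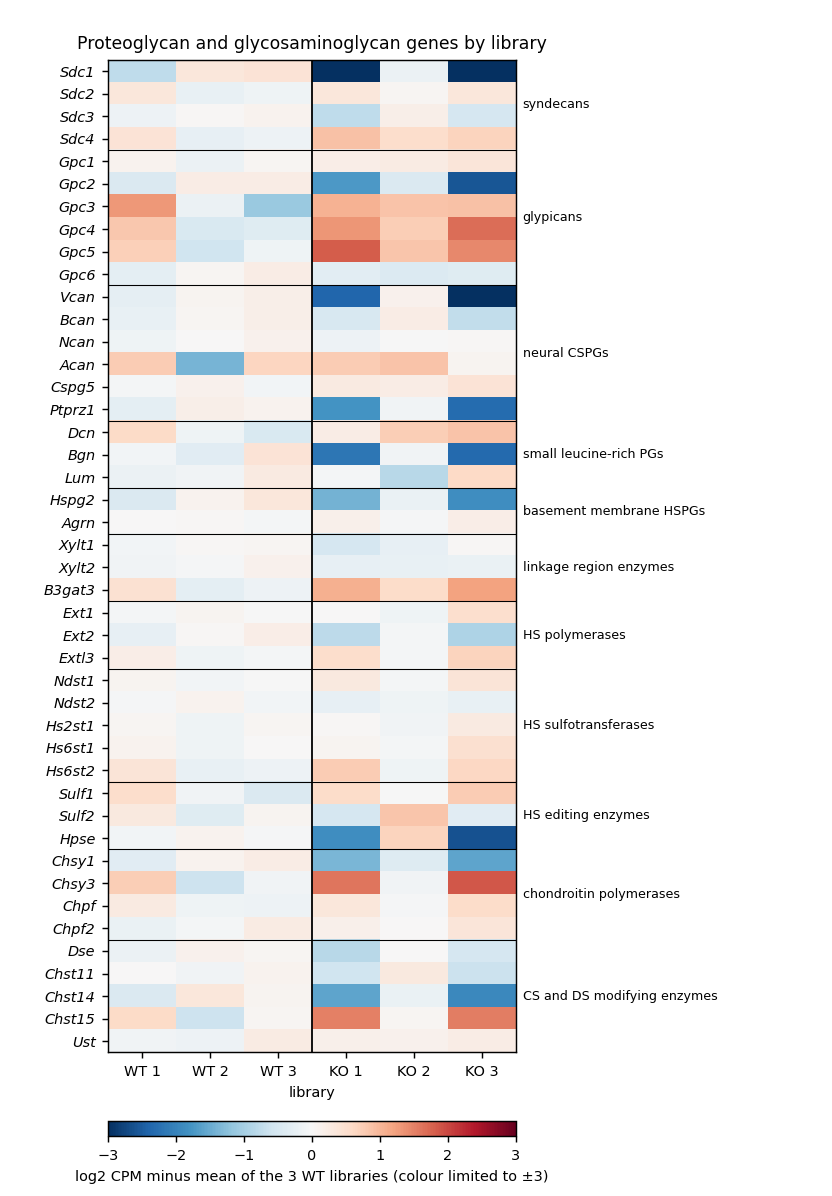
Log2 CPM of the 44 members (rows, by role) in each library (columns), after subtraction of the mean of the 3 WT libraries. Columns KO 1 and KO 3 have the same sign in all rows but Ncan, Lum and Xylt1, with Sdc1 and Vcan the darkest blue, and column KO 2 is pale for most genes.

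The upstream sequences of the 9 members that fell over the 4 libraries are shown as a description. These genes were picked by that fall, so their shared direction in KO 1 and KO 3 follows from the choice. Of the 44 members, 32 were matched by symbol to RefSeq promoter windows (GRCm38.p6), among them all 9. The stretches run 5′ to 3′ on the gene's strand and end just before the more upstream of the RefSeq and GENCODE starts. Shown are the 5 with a fold change above 4 and Chsy1, and capitals mark GC boxes (GGGCGG or its reverse complement CCGCCC) and E-boxes (CACGTG).

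Sdc1, chr12:8771146-8771322, plus strand: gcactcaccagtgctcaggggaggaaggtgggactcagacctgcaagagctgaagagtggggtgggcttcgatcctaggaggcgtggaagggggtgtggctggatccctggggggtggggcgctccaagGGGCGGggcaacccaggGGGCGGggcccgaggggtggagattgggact

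Gpc2, chr5:138280006-138280187, minus strand: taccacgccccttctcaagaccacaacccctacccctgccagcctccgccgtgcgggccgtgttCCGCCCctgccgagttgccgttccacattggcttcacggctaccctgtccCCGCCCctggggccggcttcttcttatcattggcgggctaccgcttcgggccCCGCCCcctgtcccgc

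Vcan, chr13:89742513-89742712, minus strand: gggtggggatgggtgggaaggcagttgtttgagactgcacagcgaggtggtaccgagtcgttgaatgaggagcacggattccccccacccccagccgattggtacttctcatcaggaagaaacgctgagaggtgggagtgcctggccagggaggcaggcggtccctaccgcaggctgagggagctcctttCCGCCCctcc

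Bgn, chrX:73483401-73483600, plus strand: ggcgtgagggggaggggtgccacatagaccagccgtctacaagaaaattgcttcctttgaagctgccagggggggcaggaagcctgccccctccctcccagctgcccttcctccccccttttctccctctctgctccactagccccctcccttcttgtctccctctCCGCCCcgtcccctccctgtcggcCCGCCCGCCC

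Hpse, chr5:100719717-100719916, minus strand: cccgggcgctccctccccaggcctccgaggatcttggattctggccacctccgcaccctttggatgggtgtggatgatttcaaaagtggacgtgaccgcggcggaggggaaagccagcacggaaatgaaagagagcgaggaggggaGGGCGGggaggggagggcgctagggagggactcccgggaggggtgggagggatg

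Chsy1, chr7:66109292-66109491, plus strand: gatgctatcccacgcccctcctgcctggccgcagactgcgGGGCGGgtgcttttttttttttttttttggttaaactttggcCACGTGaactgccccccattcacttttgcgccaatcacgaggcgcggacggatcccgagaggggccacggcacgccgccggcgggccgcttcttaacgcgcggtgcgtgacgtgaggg

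In the 250 bases upstream of the RefSeq starts, searched on both strands, a GC box was present for 9 of the 9, for 30 of 37 windows of all members (81.1%) and for 53.3% of the windows of genes in the table. An E-box was present for 2 of the 9, Chsy1 and Chst14, the latter farther upstream than the stretch length used above, and for 3 of 37 windows of members (8.1%), beside 7.7% of those of the table's genes. TATAAA was found for 0 of the 9 and for 4 of 37 windows of members, beside 7.0% of those of the table's genes. Some genes have more than 1 window, GC boxes can overlap each other, and a match is a description of the letters alone. The stretch of Hpse had 66.5% G and C and that of Chsy1 62.5%.

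Among the 4 syndecans, transmembrane heparan sulfate proteoglycans that act as co-receptors at the cell surface, Sdc1 fell over the 4 libraries and the other 3 did not pass. Sdc1 (chr12:8771323-8793715 in GRCm38) had 17.8, 37.9 and 40.3 CPM in WT 1, WT 2 and WT 3 and 2.62, 26.5 and 1.56 in KO 1, KO 2 and KO 3. KO 1 and KO 3 were far below every WT library, while KO 2 lay between WT 1 and WT 2, so the groups overlapped. Fitted across all genes, its log2 fold change was -3.75 over the 4 libraries (SE 0.52, adjusted p = 0.0343, edgeR) and -1.67 over all 6 (SE 1.07, adjusted p = 0.286), the largest decrease among the members in either fit. Because these are bulk libraries, fewer cells that express a gene and less of its RNA per cell cannot be told apart, here or for any gene below. Sdc4, a syndecan of focal adhesions, had 47.8, 30.4 and 32.4 CPM in WT 1, WT 2 and WT 3 and 66.4, 51.7 and 57 in KO 1, KO 2 and KO 3. Every KO library was above every WT library, by a small margin between KO 2 and WT 1. In the fits it had a log2 fold change of 0.65 over the 4 libraries (SE 0.26, adjusted p = 0.117, edgeR) and 0.65 over all 6 (SE 0.21, adjusted p = 0.184), and it was 0.75 without KO 2 (adjusted p = 0.0366). Sdc3, the most abundant syndecan, had 388, 442 and 458 CPM in WT 1, WT 2 and WT 3 and 253, 487 and 301 in KO 1, KO 2 and KO 3. Both KO 1 and KO 3 were below the WT range and KO 2 was above it. For Sdc3 the log2 fold change was -0.59 over the 4 libraries (SE 0.26, adjusted p = 0.133, edgeR) and -0.33 over all 6 (SE 0.28, adjusted p = 0.407). Sdc2 ranged from 44.9 to 66.8 CPM in the WT and from 55 to 66.9 CPM in the KO libraries, and the groups overlapped.

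The 6 glypicans, heparan sulfate proteoglycans held to the membrane by a lipid anchor, split in direction. Gpc2, a glypican of developing neurons (chr5:138273655-138280005), had 15.4, 23.9 and 23.9 CPM in WT 1, WT 2 and WT 3 and 6.27, 15.2 and 3.49 in KO 1, KO 2 and KO 3. The KO libraries were all lower than the WT libraries, although KO 2 was only just below WT 1. This gave a log2 fold change of -2.02 over the 4 libraries (SE 0.42, adjusted p = 0.0415, edgeR) and -1.36 over all 6 (SE 0.55, adjusted p = 0.184). Its exons overlap those of Gm43720 on the same strand, so its counts are uncertain where reads could not be assigned. Gpc5, a glypican expressed in the adult brain, had 28.8, 11.5 and 16 CPM in WT 1, WT 2 and WT 3 and 61.7, 31.2 and 47.5 in KO 1, KO 2 and KO 3. The KO libraries were all above the WT libraries. Its log2 fold change was 1.43 over the 4 libraries (SE 0.46, adjusted p = 0.0758, edgeR) and 1.31 over all 6 (SE 0.41, adjusted p = 0.184), and it was 1.54 without KO 2 (adjusted p = 0.0221). Gpc4, which astrocytes secrete to promote synapse formation, had 6, 2.48 and 2.66 CPM in WT 1, WT 2 and WT 3 and 8.56, 5.7 and 10.9 in KO 1, KO 2 and KO 3. Only KO 2 overlapped the WT libraries, lying just under WT 1. Gpc4 showed a log2 fold change of 1.19 over the 4 libraries (SE 0.49, adjusted p = 0.118, edgeR) and 1.16 over all 6 (SE 0.44, adjusted p = 0.184). Gpc1, the most abundant glypican, had 94.1, 77.8 and 91 CPM in WT 1, WT 2 and WT 3 and 99.9, 103 and 112 in KO 1, KO 2 and KO 3, and its log2 fold change was 0.29 over the 4 libraries (SE 0.19, adjusted p = 0.272, edgeR) and 0.24 over all 6 (SE 0.13, adjusted p = 0.221). All its KO libraries were above the WT libraries by a narrow margin. Gpc6 was lower in each KO library (20.5 to 21.9 CPM) than in each WT library (22.4 to 31.9 CPM) and did not pass in either fit. Gpc3 had 7.04, 2.48 and 1.28 CPM in WT 1, WT 2 and WT 3 and 5.82, 5.12 and 5.21 in KO 1, KO 2 and KO 3, and its groups overlapped.

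Of the 6 neural chondroitin sulfate proteoglycans, Vcan and Ptprz1 fell over the 4 libraries. Vcan encodes versican, a large lectican that binds hyaluronan (chr13:89655312-89742509), and had 321, 412 and 441 CPM in WT 1, WT 2 and WT 3 and 74.3, 423 and 32.3 in KO 1, KO 2 and KO 3. Libraries KO 1 and KO 3 were below every WT library and KO 2 was within the WT range. The fitted log2 change of Vcan was -2.79 over the 4 libraries (SE 0.47, adjusted p = 0.0343, edgeR) and -1.17 over all 6 (SE 0.90, adjusted p = 0.355). Ptprz1 (chr6:22875502-23052916), a receptor tyrosine phosphatase of the oligodendrocyte precursor lineage that carries chondroitin sulfate, had 1190.3, 1654 and 1585 CPM in WT 1, WT 2 and WT 3 and 425, 1348 and 293 in KO 1, KO 2 and KO 3. The same libraries, KO 1 and KO 3, were the low ones, and KO 2 was again within the WT range. Fitted across all genes, its log2 fold change was -2.00 over the 4 libraries (SE 0.41, adjusted p = 0.0415, edgeR) and -1.12 over all 6 (SE 0.60, adjusted p = 0.228). The former was just short of the limit of 4-fold. Bcan, the brain lectican brevican, had 429, 518 and 561 CPM in WT 1, WT 2 and WT 3 and 356, 579 and 298 in KO 1, KO 2 and KO 3, with KO 1 and KO 3 below the WT range and KO 2 above it. Its log2 fold change was -0.62 without KO 2 (adjusted p = 0.0494), a call that neither the 4 nor the 6 libraries gave. Ncan (neurocan), a lectican of the perineuronal matrix, ranged from 339.5 to 403 CPM in WT and from 336 to 379.7 CPM in KO. Its log2 fold change over all 6 was -0.06 with an SE of 0.17. Cspg5 was higher in each KO library (370.1 to 424 CPM) than in each WT library (301 to 346 CPM) and did not pass in any of the 3 fits. Acan had 8.14, 1.81 and 7.45 CPM in WT 1, WT 2 and WT 3 and 8.1, 8.64 and 5.05 in KO 1, KO 2 and KO 3, and its groups overlapped.

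**Figure D3:**
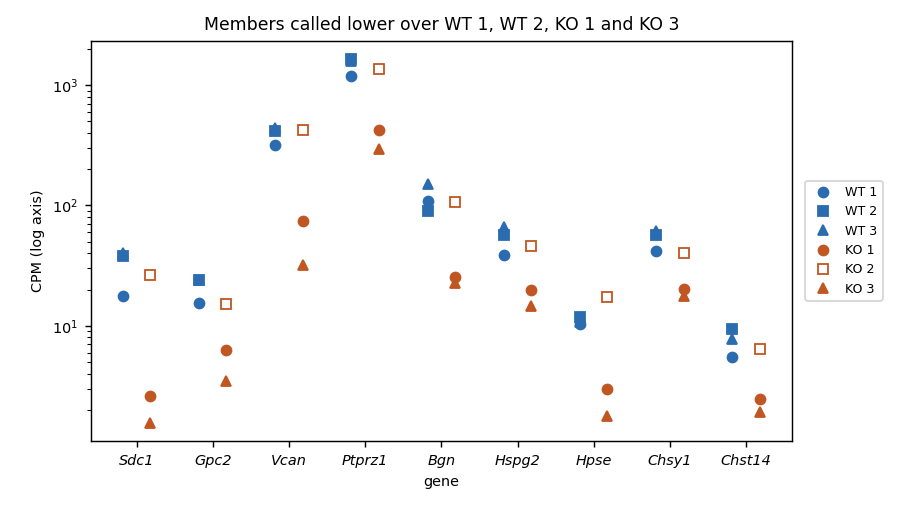
CPM on a log axis of the 9 members that fell over WT 1, WT 2, KO 1 and KO 3, with WT libraries in blue, KO libraries in orange and KO 2 as open squares. For every gene KO 1 and KO 3 lie below the 3 WT libraries, and KO 2 lies within the WT range for 6, below it for 2 (Gpc2 and Chsy1) and above it for 1 (Hpse).

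Bgn, Dcn and Lum encode biglycan, decorin and lumican, small leucine-rich proteoglycans of the collagen matrix. Bgn (chrX:73483602-73495933) had 108, 90.8 and 151 CPM in WT 1, WT 2 and WT 3 and 25.4, 106 and 22.5 in KO 1, KO 2 and KO 3. KO 2 was within the WT range and the other KO libraries were below it. In the fits it had a log2 fold change of -2.07 over the 4 libraries (SE 0.19, adjusted p = 0.0343, edgeR) and -1.20 over all 6 (SE 0.64, adjusted p = 0.225). Biglycan had the smallest SE of the 9 members over the 4 libraries. Dcn had 13.7, 8.42 and 6.66 CPM in WT 1, WT 2 and WT 3 and 10.7, 15.3 and 16.7 in KO 1, KO 2 and KO 3, and Lum had 2.71, 2.84 and 3.65 CPM in WT 1, WT 2 and WT 3 and 2.91, 1.69 and 4.63 in KO 1, KO 2 and KO 3. Both overlapped between the groups, and neither passed in any of the 3 fits. Of the heparan sulfate proteoglycans of basement membranes, Hspg2 (perlecan, chr4:137468769-137570630) had 38.8, 56.5 and 66.7 CPM in WT 1, WT 2 and WT 3 and 19.8, 46 and 14.5 in KO 1, KO 2 and KO 3. For Hspg2 the log2 fold change was -1.49 over the 4 libraries (SE 0.29, adjusted p = 0.038, edgeR) and -1.03 over all 6 (SE 0.47, adjusted p = 0.191), with KO 2 inside the WT range. Agrn (agrin), which had the higher level of these genes, had 260.1, 263 and 247 CPM in WT 1, WT 2 and WT 3 and 284, 251 and 295 in KO 1, KO 2 and KO 3. This gave a log2 fold change of 0.13 over the 4 libraries (SE 0.22, adjusted p = 0.655, edgeR) and 0.09 over all 6 (SE 0.15, adjusted p = 0.661), with KO 2 within the WT range and KO 1 and KO 3 slightly above it.

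Chains start at the linkage region, which Xylt1 and Xylt2 (xylosyltransferases) begin and B3gat3 (glucuronyltransferase I) completes. B3gat3 had 65.6, 39.2 and 43.3 CPM in WT 1, WT 2 and WT 3 and 101, 70.6 and 112 in KO 1, KO 2 and KO 3. Every KO library was above every WT library, and KO 2 was closest to WT 1. Its log2 fold change was 1.02 over the 4 libraries (SE 0.28, adjusted p = 0.0623, edgeR) and 0.93 over all 6 (SE 0.26, adjusted p = 0.184), and it was 1.11 without KO 2 (adjusted p = 0.0162). Xylt2 was lower in the KO libraries (31.7 to 32.7 CPM) than in the WT libraries (34.9 to 41 CPM) without passing a test, and Xylt1 overlapped between the groups (36.5 to 40.2 CPM in WT, 27.3 to 39.7 CPM in KO).

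Heparan sulfate is polymerised by the complex of Ext1 and Ext2 and started by Extl3. Ext2 had 62.4, 75.8 and 84.6 CPM in WT 1, WT 2 and WT 3 and 42.9, 70.3 and 38.6 in KO 1, KO 2 and KO 3. KO 1 and KO 3 were the lowest, and KO 2 was within the WT range. The fitted log2 change of Ext2 was -0.77 over the 4 libraries (SE 0.19, adjusted p = 0.0511, edgeR) and -0.57 over all 6 (SE 0.27, adjusted p = 0.194), and it was -0.86 without KO 2 (adjusted p = 0.0136). Its partner Ext1 had 46, 50.1 and 46.9 CPM in WT 1, WT 2 and WT 3 and 48, 43.4 and 67.7 in KO 1, KO 2 and KO 3, with overlapping groups. Extl3 had 141, 112 and 119.5 CPM in WT 1, WT 2 and WT 3 and 178, 119 and 196 in KO 1, KO 2 and KO 3, a log2 fold change of 0.55 over the 4 libraries (SE 0.22, adjusted p = 0.111, edgeR) and one of 0.39 over all 6 (SE 0.22, adjusted p = 0.245). None of the 5 sulfotransferases of heparan sulfate passed over the 4 or the 6 libraries. Ndst1, which removes acetyl groups and adds N-sulfate, had 112, 100.4 and 106 CPM in WT 1, WT 2 and WT 3 and 129.6, 102 and 138 in KO 1, KO 2 and KO 3, and its log2 fold change was 0.32 over the 4 libraries (SE 0.18, adjusted p = 0.216, edgeR) and 0.20 over all 6 (SE 0.16, adjusted p = 0.372). Its paralog Ndst2 was lower in each KO library (21 to 22.8 CPM) than in each WT library (23.7 to 27.1 CPM), by a log2 fold change of -0.23 over all 6 (SE 0.14). The 2-O-sulfotransferase Hs2st1 and the 6-O-sulfotransferase Hs6st1 overlapped between groups, with log2 fold changes over all 6 of 0.05 and 0.16. Hs6st2, another 6-O-sulfotransferase, had 51.3, 33.3 and 35 CPM in WT 1, WT 2 and WT 3 and 66.7, 35.6 and 60.3 in KO 1, KO 2 and KO 3. KO 2 was within the WT range and the other KO libraries were above it, with a log2 fold change of 0.68 without KO 2 (adjusted p = 0.0423).

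Finished heparan sulfate is edited outside the cell by the endosulfatases Sulf1 and Sulf2 and cut by heparanase, the product of Hpse. Hpse (chr5:100679484-100719716) had 10.4, 11.8 and 10.7 CPM in WT 1, WT 2 and WT 3 and 2.97, 17.4 and 1.77 in KO 1, KO 2 and KO 3. KO 2 held the highest value of all 6 libraries and KO 1 and KO 3 the lowest, so the KO libraries enclosed the whole WT range. Fitted across all genes, its log2 fold change was -2.24 over the 4 libraries (SE 0.38, adjusted p = 0.0344, edgeR) and -0.58 over all 6 (SE 0.83, adjusted p = 0.605). Sulf2 had 226, 144 and 195 CPM in WT 1, WT 2 and WT 3 and 131, 331 and 147 in KO 1, KO 2 and KO 3. Here too KO 2 was the highest of the 6, while KO 1 was below every WT library and KO 3 just above the lowest of them. In the fits it had a log2 fold change of -0.42 over the 4 libraries (SE 0.28, adjusted p = 0.273, edgeR) and 0.09 over all 6 (SE 0.40, adjusted p = 0.866), and its sign over all 6 turned to -0.43 without KO 2. Exons of Sulf2 overlap those of Ncoa3 on the other strand. Sulf1 had 36.8, 23.7 and 19 CPM in WT 1, WT 2 and WT 3 and 37.6, 25.5 and 43.5 in KO 1, KO 2 and KO 3, with overlapping groups and a log2 fold change of 0.41 over the 4 libraries (SE 0.26, adjusted p = 0.258, edgeR) and 0.41 over all 6 (SE 0.31, adjusted p = 0.35).

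Of the 4 genes of chondroitin polymerisation, Chsy1 fell over the 4 libraries and the others did not pass. Chsy1 (chondroitin synthase 1, chr7:66109515-66173798) had 41.7, 56.8 and 61.8 CPM in WT 1, WT 2 and WT 3 and 20.3, 40.2 and 17.6 in KO 1, KO 2 and KO 3. All KO libraries were below all WT libraries, and the gap between KO 2 and WT 1 was small. For Chsy1 the log2 fold change was -1.39 over the 4 libraries (SE 0.24, adjusted p = 0.0343, edgeR) and -1.06 over all 6 (SE 0.36, adjusted p = 0.184). Its exons overlap those of Gm26827 on the other strand. The paralog Chsy3 had 10, 3.88 and 5.58 CPM in WT 1, WT 2 and WT 3 and 18.4, 5.61 and 21.9 in KO 1, KO 2 and KO 3. Both KO 1 and KO 3 were above the WT libraries and KO 2 was within their range. This gave a log2 fold change of 1.52 over the 4 libraries (SE 0.48, adjusted p = 0.0741, edgeR) and 1.22 over all 6 (SE 0.59, adjusted p = 0.201), and it was 1.63 without KO 2 (adjusted p = 0.0213). The synthases Chsy1 and Chsy3 were thus opposite in sign in each of the 3 fits. Chpf, the polymerising factor with the highest level in this role, had 77, 58.9 and 58.1 CPM in WT 1, WT 2 and WT 3 and 81.2, 62.1 and 94.1 in KO 1, KO 2 and KO 3, and its log2 fold change was 0.36 over the 4 libraries (SE 0.21, adjusted p = 0.221, edgeR) and 0.28 over all 6 (SE 0.20, adjusted p = 0.331). Chpf2 overlapped between groups (55.2 to 74.9 CPM in WT, 63.8 to 81.5 CPM in KO), and its exons overlap those of Mir671 and Smarcd3.

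Chondroitin chains are modified by sulfotransferases, and dermatan sulfate, the chain type of Endocan, is made from them by an epimerase, Dse, with the 4-O-sulfotransferase Chst14. Chst14 (chr2:118926496-118928585) had 5.47, 9.41 and 7.84 CPM in WT 1, WT 2 and WT 3 and 2.45, 6.45 and 1.93 in KO 1, KO 2 and KO 3. Libraries KO 1 and KO 3 were below the WT libraries and KO 2 was within their range. Its log2 fold change was -1.77 over the 4 libraries (SE 0.42, adjusted p = 0.0496, edgeR) and -1.09 over all 6 (SE 0.52, adjusted p = 0.2), and its adjusted p over the 4 libraries was the largest of the 9 called there. It was not called by limma-voom or when no filter on low counts was used. Dse had 13.3, 16.4 and 15.5 CPM in WT 1, WT 2 and WT 3 and 8.5, 15.1 and 10.7 in KO 1, KO 2 and KO 3. Its log2 fold change over the 4 libraries was -0.64 (SE 0.27, adjusted p = 0.123, edgeR), and it was -0.65 without KO 2 (adjusted p = 0.0403). Dsel, a related epimerase that is not a member, went the other way. It had a log2 fold change of 0.78 over the 4 libraries (SE 0.31, adjusted p = 0.114, edgeR) and 0.88 without KO 2 (adjusted p = 0.0352). Chst11, a chondroitin 4-O-sulfotransferase and the most abundant gene of this role, had 111, 102 and 118 CPM in WT 1, WT 2 and WT 3 and 72.6, 136 and 70.5 in KO 1, KO 2 and KO 3. KO 1 and KO 3 were below the WT range and KO 2 was above it, and the log2 fold change was -0.59 over the 4 libraries (SE 0.17, adjusted p = 0.0644, edgeR) and -0.27 over all 6 (SE 0.28, adjusted p = 0.489). Chst15, which adds a second sulfate to chondroitin sulfate A to give the E type, had 29.1, 12.8 and 20.3 CPM in WT 1, WT 2 and WT 3 and 56, 20.4 and 56.8 in KO 1, KO 2 and KO 3. Both KO 1 and KO 3 were above the WT libraries and KO 2 was among them. The fitted log2 change of Chst15 was 1.42 over the 4 libraries (SE 0.40, adjusted p = 0.0638, edgeR) and 1.09 over all 6 (SE 0.47, adjusted p = 0.188), and it was 1.44 without KO 2 (adjusted p = 0.0176). Ust, the uronyl 2-O-sulfotransferase, overlapped between groups with a log2 fold change of 0.14 over all 6.

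**Figure D4:**
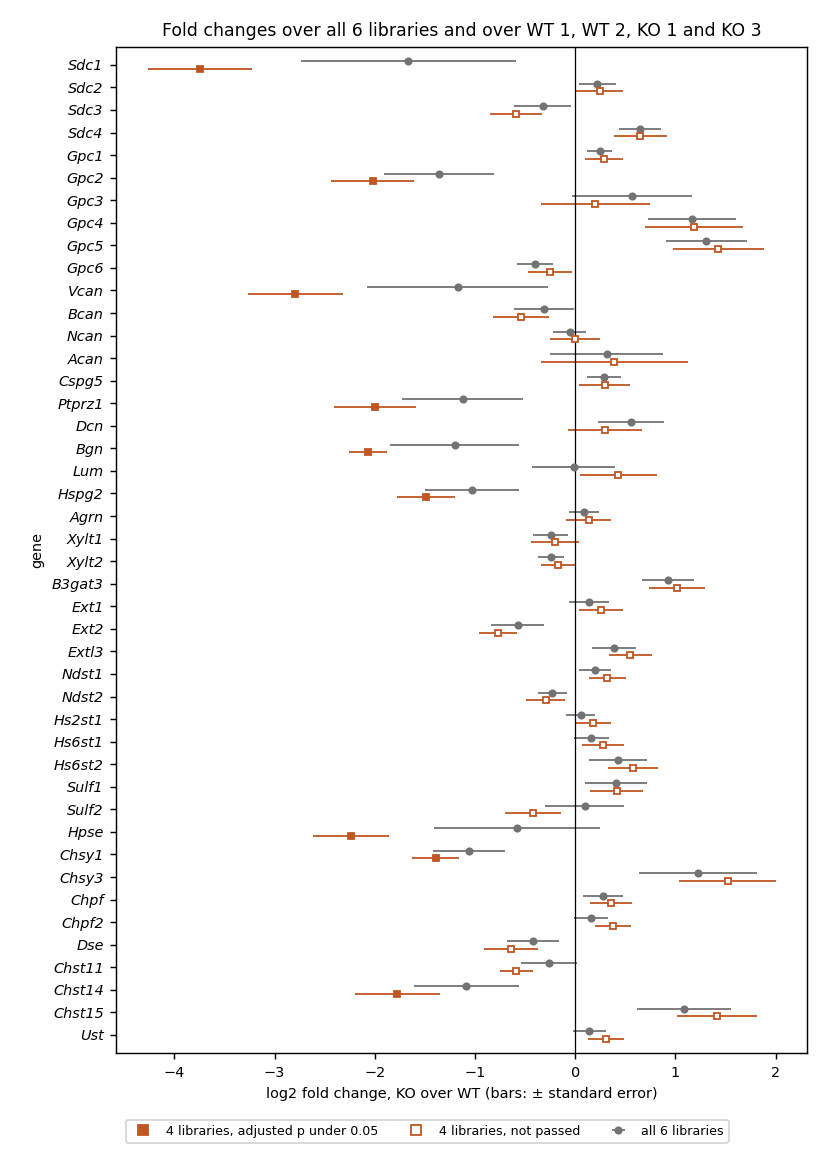
Log2 fold change (KO against WT) of each of the 44 members with its SE as bars, over all 6 libraries (grey circles) and over the 4 libraries (orange squares, filled where the adjusted p was under 0.05). The filled squares lie between -3.75 (Sdc1) and -1.39 (Chsy1), and the grey bars of Sdc1, Vcan and Hpse are the longest among these 9 genes.

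Across the members, the position of each KO library relative to the WT range summarised the pattern. Libraries KO 1 and KO 3 were both below the WT range for 17 members (39.7% of all genes) and both above it for 14 (37.3% of all genes). KO 2 was within the WT range for 24 of 44 members (54.5%, against 54.4% of all genes in the table), below it for 8 (21.2% of all genes) and above it for 12 (24.5%). Over all 6 libraries, 5 members had every KO library below every WT library (Gpc2, Gpc6, Xylt2, Ndst2 and Chsy1; 14.3% of all genes) and 5 had every KO library above (Sdc4, Gpc1, Gpc5, Cspg5 and B3gat3; 13.3% of all genes), while 34 overlapped. Those shares are near the background in both directions.

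The summed levels of markers of several cell types also differed between the WT libraries and KO 1 and KO 3. The summed level of 6 markers of oligodendrocyte precursors and proneural glioma (Pdgfra and Olig2 among them) was between 1033 and 1305 CPM in the WT libraries and 415, 1300.3 and 271 CPM in KO 1, KO 2 and KO 3, and 5 of the 6 were below every WT library in both KO 1 and KO 3. The sum of 6 genes of cycling cells (Mki67 and Top2a among them) was between 933 and 1661 CPM in WT and 81.6, 1030.4 and 8.80 CPM in KO 1, KO 2 and KO 3, with all 6 genes below the WT range in KO 1 and KO 3. In the opposite direction, 8 neuron markers (Snap25 among them) summed to between 1550 and 4635 CPM in WT and to 10650, 4016 and 13026 CPM in KO 1, KO 2 and KO 3, with 7 of the 8 above the WT range in both KO 1 and KO 3. Mature oligodendrocyte markers, 5 in all (Mbp among them), summed to between 1071 and 2903 CPM in WT and between 2701 and 6861 CPM in KO, with 4 of the 5 above the WT range in both KO 1 and KO 3. The sum of 6 astrocyte markers was between 2823 and 3585 CPM in WT and between 3900 and 5687 CPM in KO, with 3 of the 6 above and 1 below the WT range in both KO 1 and KO 3, so the list did not move one way. Gfap, the filament protein of astrocytes, fell over the 4 libraries (log2 fold change -2.26, adjusted p = 0.0343, edgeR), and Gja1, a gap junction protein, rose (1.42, adjusted p = 0.0476, edgeR). Sums of 6 markers each for endothelial cells (136 to 170 CPM in WT, 137 to 187 CPM in KO), mural cells and fibroblasts (96.7 to 171 and 130 to 141 CPM) and microglia and macrophages (329 to 405 and 337 to 474 CPM) overlapped between the groups. Of the microglia and macrophage markers, 3 were below and 2 above the WT range in both KO 1 and KO 3, and Aif1 (log2 fold change -1.56) and Cd68 (-1.80) fell over the 4 libraries (adjusted p = 0.0343 for each, edgeR). Among the endothelial markers 2 were above that range in both libraries and 0 below, and the same counts held for the mural and fibroblast markers. No marker of these lists was at 0 in any library. The part of these marker lists in the changes of the members was not tested.

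**Figure D5:**
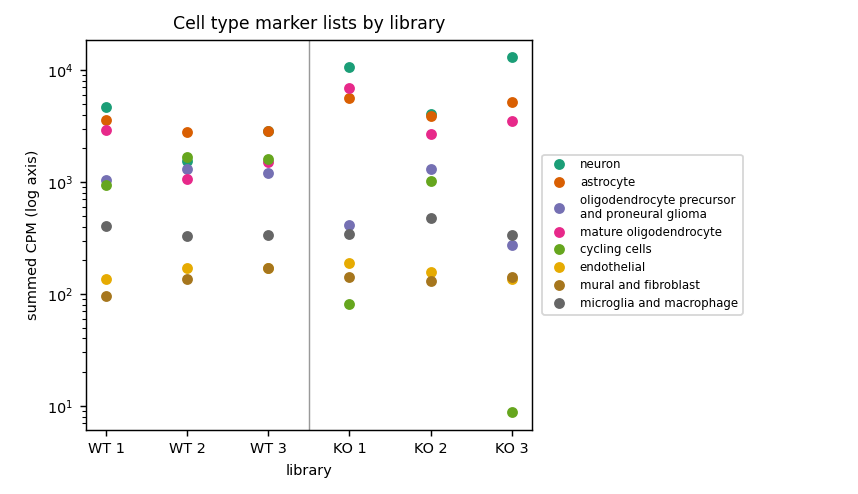
Summed CPM of each cell type marker list in each library on a log axis, WT to the left and KO to the right of the line. KO 1 and KO 3 have the lowest sums for cycling cells and the highest for neurons, and KO 2 lies within the WT range for both.

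Of 66 other genes of proteoglycan, hyaluronan and glycosaminoglycan biology that were listed, 63 were in the table and tested. Over the 4 libraries 12 of them fell (19%, against 13.9% of all genes) and 3 rose (4.76%, against 2.87% of all genes), while over all 6 libraries 0 were called by edgeR's quasi-likelihood test, 6 were called by DESeq2 (1 lower and 5 higher, against 2.63% and 4.68% of all genes), and an unadjusted p under 0.05 was reached by 3 lower and 11 higher genes (against 11.9% and 15.2% of all genes). Without KO 2, 14 fell (22.2%, against 28.3% of all genes) and 18 rose (28.6%, against 24.5% of all genes). Has2, a hyaluronan synthase, had 8.04, 14.5 and 18.2 CPM in WT 1, WT 2 and WT 3 and 0.856, 10.9 and 0.469 in KO 1, KO 2 and KO 3, and its log2 fold change was -4.10 over the 4 libraries (SE 0.53, adjusted p = 0.0343, edgeR) and -1.76 over all 6 (SE 1.14, adjusted p = 0.29). Cd44, the hyaluronan receptor, had 32.2, 63.1 and 58.6 CPM in WT 1, WT 2 and WT 3 and 5.42, 33.9 and 6.2 in KO 1, KO 2 and KO 3, with a log2 fold change of -3.05 over the 4 libraries (SE 0.39, adjusted p = 0.0343, edgeR) and -1.78 over all 6 (SE 0.78, adjusted p = 0.188). Both genes had KO 1 and KO 3 far below the WT libraries, and KO 2 overlapped the WT range. Chst3, a chondroitin 6-O-sulfotransferase, had 27.2, 30.8 and 31.1 CPM in WT 1, WT 2 and WT 3 and 5.42, 34.7 and 3.64 in KO 1, KO 2 and KO 3, with a log2 fold change of -2.69 over the 4 libraries (SE 0.29, adjusted p = 0.0343, edgeR) and -1.04 over all 6 (SE 0.84, adjusted p = 0.372). Cspg4, the core protein NG2 of oligodendrocyte precursors and pericytes, had 194, 241 and 212 CPM in WT 1, WT 2 and WT 3 and 46.1, 303 and 28.5 in KO 1, KO 2 and KO 3, with a log2 fold change of -2.56 over the 4 libraries (SE 0.32, adjusted p = 0.0343, edgeR) and -0.80 over all 6 (SE 0.87, adjusted p = 0.5). For both of these KO 2 was the highest library of the 6 and KO 1 and KO 3 the lowest. The 3 that rose over the 4 libraries were all genes of heparan sulfate. Hs3st3a1, a 3-O-sulfotransferase, had 1.76, 1.6 and 1.13 CPM in WT 1, WT 2 and WT 3 and 5.02, 2.23 and 6.56 in KO 1, KO 2 and KO 3, with a log2 fold change of 1.77 over the 4 libraries (SE 0.35, adjusted p = 0.0402, edgeR) and 1.60 over all 6 (SE 0.46, adjusted p = 0.184). Hs3st1, another 3-O-sulfotransferase, had a log2 fold change of 1.78 over the 4 libraries (SE 0.42, adjusted p = 0.0493, edgeR) and 1.52 over all 6 (SE 0.49, adjusted p = 0.184). Extl1, a glycosyltransferase related to Extl3, had one of 1.90 over the 4 libraries (SE 0.46, adjusted p = 0.0499, edgeR) and 1.54 over all 6 (SE 0.52, adjusted p = 0.184). For Hs3st1 and Extl1, KO 2 was within the WT range. In all, 10 of the 12 tested genes listed under heparan sulfate were above the WT range in both KO 1 and KO 3 (37.3% of all genes were), and 0 were below it in both (39.7% of all genes were). KO 2 was within the WT range for 8 of the 12 (54.4% of all genes), below it for 2 and above it for 2. Without KO 2, 8 of these 12 rose, against 24.5% of all genes, and 0 fell, against 28.3%. The heparan sulfate enzymes among the members are not in this list and were mixed by the same measure. Of their polymerases 1 of 3 was above and 1 below, of the sulfotransferases 2 of 5 above and 1 below. Of the editing enzymes 1 of 3 was above and 1 below. Another list leaned the other way, with 8 of 11 genes of lysosomal breakdown below the WT range in both KO 1 and KO 3 and 2 above.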

How the data were processed

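Tumor RNA was sequenced for 6 libraries, 3 from Esm1 WT and 3 from Esm1 KO hosts, grouped by the sample labels. The deposited counts are whole numbers of reads per gene, which the authors made without normalization. The submitters' processing notes name CASAVA 1.8.2, edgeR and the mouse build mm10, and the labels name the NEBNext Ultra RNA kit, whereas the methods name another kit, HTSeq and a human build, and the reporting summary names STAR. Whether counting used the strand is not given in the sources used here. The deposited FPKM, computed by the authors per gene and library, served only to compare levels between genes. The authors' own log2 fold changes, p-values, false discovery rates, ratios per KO library and normalized counts were not used. Each gene of the table has a largest count of at least 5 and counts in at least 4 libraries, so genes under this limit cannot be assessed.

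Counts were fitted on all genes with edgeR 4.0.16 in R 4.3.3 (filterByExpr with a minimum count of 10 and a minimum total of 15, TMM factors, quasi-likelihood F test, Benjamini-Hochberg adjustment over all genes tested). The SE is the size of the log2 fold change over the square root of F. A gene was called at an adjusted p under 0.05. The alternatives tried were scaling by RLE or the upper quartile, the filter omitted or set to a mean count of at least 10, DESeq2 1.42.0, edgeR's exact test, limma-voom (limma 3.58.1), a fold change above 4, the replicate number as a block and each library left out. The members and lists were chosen with earlier results of these data known. Fold changes with errors are given by rule for each member called in either fit, and in each role for the member with the highest mean CPM and the one with the smallest p over all 6 libraries, with others added after their values were seen (Gpc4, Hs6st2, Chsy3, Dse and members given by 1 value). Of the other pathway genes, the 3 lowest and 3 highest called and Cspg4 and Cd44 were named, and Dsel was added after its values were seen. Libraries of a group were not duplicates of each other. The fits were also run on simulated data with the same spread for all genes and no outlying library, which does not cover a library such as KO 2. Positions came from GRCm38 (GENCODE vM21) by symbol, promoter windows from RefSeq (GRCm38.p6), and figures were drawn with Python 3.11.15, pandas 2.3.3 and matplotlib 3.10.9.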

Additional observations from a re-analysis of the deposited data

How the results depend on the processing

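Over all 6 libraries, 0 members and 0 other pathway genes were called, and this held with RLE and upper quartile scaling, both filters, the exact test and limma-voom. DESeq2 gave 2 members and 6 other genes. Leaving out 1 library gave 0 to 22 members and 0 to 32 other genes, with the highest counts without KO 2. Over the 4 libraries, 9 members and 15 other genes were called. DESeq2 gave 14 and 27, edgeR's exact test gave 14 and 26, and the demand of a fold change above 4 left 5 and 6. Leaving out 1 of the 4 gave 0 to 25 members and 1 to 41 other genes, lowest without KO 3 and highest without WT 1. The count of members whose libraries did not overlap was 10 (22.7%, against 27.6% of all genes), was 8 with CPM scaled to the total count only (18.2%, against 26% of all genes), and was 11 to 31 with 1 library left out, highest without KO 2 (70.5%, against 77% of all genes) and 26 without WT 1 (59.1%, against 65.1%). The sign of Sulf2 over all 6 libraries, 0.09 in log2 fold change, turned with limma-voom (-0.035), and with 1 library left out it ranged from -0.43 (without KO 2) to 0.33 (without KO 1), being -0.06 without WT 2. Apart from Sulf2, the members named by the rule kept their sign under all these alternatives. Lum, which that rule did not name, turned from -0.01 over all 6 libraries to 0.30 without KO 2. With the replicate number as a block, 0 members and 0 other genes were called over all 6 libraries, and the log2 fold change of Sulf2 was -0.028. Deviations of same-numbered WT and KO libraries from their group means correlated at 0.62, 0.64 and -0.25, and WT 3 correlated best with KO 2. Deviations from a mean of 3 libraries are bound to each other, so these values cannot decide whether the numbers pair the samples. The 4 libraries share only the number 1, so no block could be fitted to them. The causes of these changes were not tested.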
